A study of Mus musculus with 72 samples.

Results

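Repressed reporters are described here, which are copies of a barcoded reporter gene in mouse embryonic stem cells. Their RNA output, as a mean log2 level, lay more than 16-fold below that of the median copy in the same cell pool. Members were chosen among integrations of chromosomes 1 to 19 by their level, the log2 ratio of a barcode's share of RNA reads to its share of DNA reads, with 0.5 added to the RNA count, averaged over 2 cultures and set to 0 at the pool median. A level below -4 made an integration a member, which held for 1126 of 17500 autosomal integrations (6.43%), in a series that lists 17857 integrations. Members were thus selected on their own RNA and DNA counts, and their level and depth are given as a description without a test.

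The series used TRIP, in which many copies of 1 reporter, each with its own random barcode, are inserted across the genome by a transposon and read out together. All cells were of EBRTcH3, a mouse embryonic stem cell line that makes the tetracycline-controlled transactivator from the Rosa26 locus, and all carried piggyBac-delivered reporters with the promoter of the mouse phosphoglycerate kinase gene (mPGK). They were kept with leukemia inhibitory factor, the MEK inhibitor PD0325901 and the GSK-3 inhibitor CHIR99021, in medium conditioned by BRL cells. Cells sorted for low eGFP grew for 5 days, 6 pools (mPGK-A to mPGK-F) grew for 7 days, and each pool was split into 2 cultures that grew apart for 7 more days and count as technical replicates. There is no untreated or promoterless group, so each level is relative to the other reporters of its pool. A level is an average over all cells with that barcode, so few cells with output and low output in each cell cannot be told apart, and the pools hold only cells that passed the sort for low eGFP. The table counts reporter barcodes only, so markers of embryonic stem cells could not be checked.

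A transposed gene is read in the chromatin it lands in, and its output can differ by orders of magnitude between sites, which is called a position effect. Compact chromatin, with histone marks such as methylated H3K9 or H3K27, DNA methylation and contact with the nuclear lamina, is known to hold genes silent over domains of many kilobases. A housekeeping promoter such as mPGK is active in most cell types, and copies of it have been used to compare places of integration. piggyBac inserts at TTAA sites and is known to favour open, gene-rich chromatin.

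The barcode is the part of each reporter that was sequenced and counted. Barcodes are shown for the 5 closest pairs of repressed reporters from different pools, since these were separate integrations at nearly the same place, and for the 5 lowest members with at least 10 RNA reads in each culture, since their low level was counted from RNA in both cultures. They are in lower case, and no letter is marked.
mPGK-B chr2:50016875: gtcacggttctaaacg
mPGK-F chr2:50017048: aaaatgaccattaaca
mPGK-D chr7:74764335: ccatactgtggttttc
mPGK-F chr7:74764904: tcaaaatatgctggcg
mPGK-D chr6:123237736: gttcaatctgtgaaca
mPGK-A chr6:123239299: cgcagacctgacatgc
mPGK-D chr4:130275526: acacgtgtgttctctt
mPGK-B chr4:130278105: tcgagctcgctgtata
mPGK-B chr7:35725511: aatacccctagtcact
mPGK-A chr7:35729244: gacgtggataatcgta
mPGK-C chr7:82864234: cccaaacttgggtctt
mPGK-C chr6:61381471: acacgatagctcacga
mPGK-C chr12:43238978: gtggaatcttactctt
mPGK-F chr9:45074380: ttcctactgccatacc
mPGK-A chr9:75130771: gcctattaaaagtgta
All positions are those of mm9 as listed, and gene annotation of that build was not used here, so no gene is named for a place.

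Repressed reporters were found in every pool at a like share. They made up 5.80% of the autosomal integrations of mPGK-A (155), 6.14% of mPGK-B (191), 7.05% of mPGK-C (174), 7.07% of mPGK-D (219), 6.62% of mPGK-E (205) and 5.96% of mPGK-F (182), a mean of 6.44 ± 0.55% (SD, n = 6 pools). Behind these values, DNA counts summed to 3386477 to 3693449 reads per pool and culture, and RNA counts to 2880244 to 3508366 reads. Levels of members ran from -12.63 to -4.00085, with a median of -5.26 and quartiles at -6.55 and -4.47. The lowest values depend on the amount added to an RNA count of 0, and where a member had no RNA read its distance from the median is given as a bound.

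Members just inside the threshold were hardly lower than the integrations just outside it. Inside lay chr4:106010565 of mPGK-F at -4.00085 with 6 and 0 RNA reads, chr1:56010476 of mPGK-B at -4.00101 with 5 and 23, and chr2:58417220 of mPGK-B at -4.00124 with 45 and 47. Outside lay 3 integrations of mPGK-C, chr17:88911738 at -3.99946 with 15 and 0 RNA reads, chr13:36497828 at -3.99826 with 7 and 4, and chr4:93087134 at -3.99719 with 30 and 41. Levels ran on across the threshold without a visible gap.

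A member had a median of 16 RNA reads over both cultures (0 to 449, quartiles 6 and 35), where the other autosomal integrations had a median of 640 (5 to 116800). DNA reads, which measure how abundant the cells with that reporter were, had a median of 1364.5 in members (82 to 97194) and 1692.5 in the others (84 to 46205). The median DNA count was lower in members than in the others in each pool, at 1191 to 1462 against 1461 to 1878 reads.

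**Figure D1:**
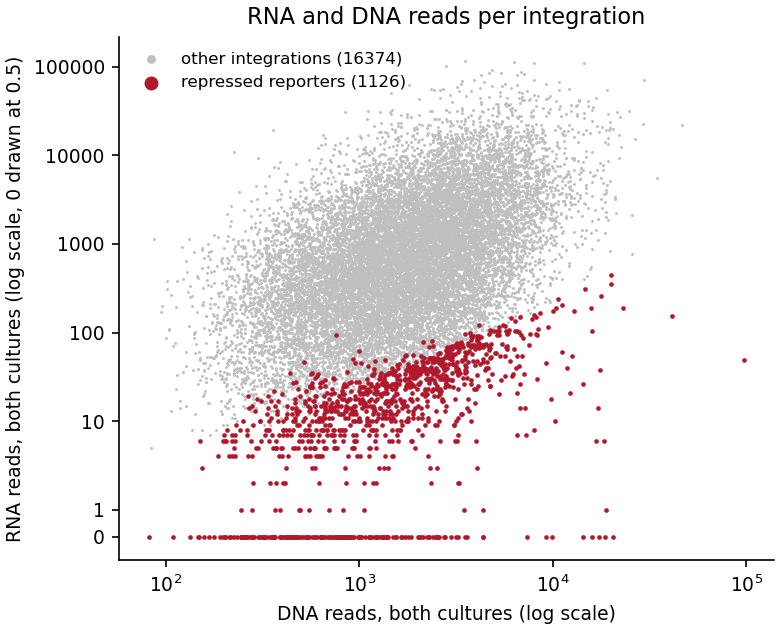
RNA reads (y axis, log scale, 0 drawn at 0.5) against DNA reads (x axis, log scale) summed over both cultures, with 1 point per autosomal integration, repressed reporters in red and the others in grey. Members lie along the lower edge, from 82 to 97194 DNA reads, and 181 of them lie at 0 RNA reads.

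Membership was more frequent at low DNA depth. When the integrations of each pool were ordered by DNA count and cut into 10 equal classes, members made up 9.53% of the lowest class and 8.74% of the next, then between 5.03% and 6.81% in the other 8 classes. Members were a larger share of the lowest class than of the highest in 6 of 6 pools, at 8.33 to 10.6% against 3.92 to 8.10%. In the lowest class 66 of 167 members had no RNA read, and in the highest class 8 of 92. At the sparse end stood the member with the fewest DNA reads, chr8:127729282 of mPGK-D, with 44 and 38 DNA reads and no RNA read, which places it at least 8.65-fold below its pool median at a floor of 3 reads. The part of depth in the membership of single integrations was not tested.

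How firmly the counts place a reporter below 16-fold differed between members. A reporter at the pool median would have given a median of 491 RNA reads at the DNA depth of the members (25.9 to 35633). Read over both cultures together and with no read added, 945 members and 21 other integrations lay under 1/16 of that expected count. The remaining 181 members, all with RNA reads, lay at 1/16 of the expected count or above. The upper limit of the exact two-sided Poisson 95% interval of the RNA count lay under 1/16 of it in 617 members (54.8%). The same limit lay under 1/4 in 1116 of the 1126 members. In 4 members even the 3-read floor lay above 1/16 of the expected count, so that a lack of RNA reads could not show a 16-fold drop there. Intervals and floors cover counting error only, since PCR reads are not independent molecules.

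The 181 members without any RNA read (16.1%) were all such integrations on the autosomes. At the floor of 3 reads they lay at least 8.65-fold to at least 2158-fold below their pool median, with a median bound of 81.3-fold, and 177 of them lay at least 16-fold below. These bounds, here and below, take a 0 to allow no more than 3 reads. In 418 other members a 0 in 1 culture stood beside a median of 10 RNA reads (1 to 94) in the other culture. The 3-read bound was largest among the deeply counted ones, such as chr9:48974348 of mPGK-A, which had 8755 and 9825 DNA reads, 0 and 0 RNA reads and an output at least 2140-fold below the median.

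The other extreme was a repressed reporter with abundant DNA reads, and with some RNA reads in both cultures. Highest in DNA of all members, and lowest of the 258 members with at least 10 RNA reads in each culture, was chr7:82864234 of mPGK-C. It had 52349 and 44845 DNA reads against 16 and 33 RNA reads, levels of -10.24 and -8.87, and a mean level of -9.54, or 747-fold below the median. Next came chr6:61381471 of mPGK-C, with 7763 and 6571 DNA reads, 14 and 12 RNA reads and levels of -7.67 and -7.52. Then came chr12:43238978 of mPGK-C, with 22817 and 18257 DNA reads, 43 and 110 RNA reads and levels of -7.64 and -5.85. Both others stood on chromosome 9. The mPGK-F reporter at chr9:45074380 had 3929 and 4328 DNA reads with 15 and 15 RNA reads, and levels of -6.59 and -6.73. The mPGK-A reporter at chr9:75130771 had 5630 and 6188 DNA reads with 19 and 21 RNA reads, and levels of -6.77 and -6.51. All 5 were below -4 in each culture, and none had an integration of another pool within 20 kb.

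Cultures of the same pool did not always give a member the same low level. Both cultures lay below -4 in 643 members (57.1%), and 1 culture only in 483 (42.9%), which was culture 1 in 244 and culture 2 in 239. In these 483 the higher culture had a median level of -3.37, 38 of them lay above -2, and 1 lay above 0, at 0.16. The difference between cultures had an SD of 2.96 log2 units in members and 0.83 in the other integrations. For the 527 members with RNA reads in both cultures (46.8%) that SD was 1.55. The choice by a low mean favours integrations with a low culture, so the wider spread is a description and not a finding.

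An RNA count of 0 in a single culture was common among members. It was seen in 418 of them (37.1%), in culture 1 for 210 and in culture 2 for 208, while the other culture had a median of 10 RNA reads (1 to 94). Among the 16374 other integrations it was seen in 42. Over the whole table an RNA count was 0 in 837 of 35714 values and between 1 and 3 in 148, fewer than the 378 between 4 and 6. The sources used here do not give how low counts were treated, and the part of these zeros in the membership was not tested.

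**Figure D2:**
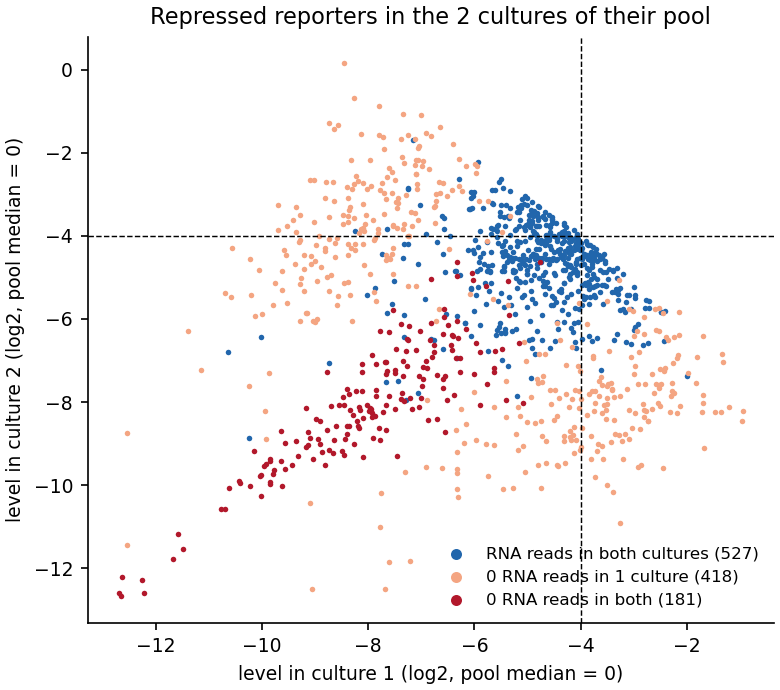
Level of each repressed reporter in culture 1 (x axis) and culture 2 (y axis) of its pool, in log2 units with the pool median at 0; dashed lines mark -4. Points with 0 RNA reads in 1 culture (418) form 2 clouds away from the diagonal, and those with 0 reads in both (181) lie near it, where the level follows the DNA count.

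When RNA and DNA counts were compared within each pool by edgeR's quasi-likelihood test, 33.7% of all 17857 integrations were called lower than the median ratio of their pool (Benjamini-Hochberg adjusted p of at most 0.05). Of the members 1098 were called lower (97.5%) and none higher, which follows from the rule and supports nothing. The 28 members not called all had 0 RNA reads in 1 culture and reads in the other, and their median DNA count was 474.5. DESeq2 called 6008 of all integrations lower (33.6%), among them 1035 members, and did not call the other 91 members.

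Repressed reporters were spread over all 19 autosomes. Chromosome 14 had the highest share, with 81 of 948 integrations (8.54%), and chromosome 1 followed with 107 of 1266 (8.45%). Chromosome 19 had the lowest, 22 of 489 (4.50%), and then chromosome 17, 32 of 678 (4.72%). The order did not hold in every pool. Chromosome 14 lay above the share of the whole pool in 4 of 6 pools (4.64 to 11.7%) and chromosome 1 in 5 of 6 (5.05 to 11.4%), while chromosome 17 lay below it in 5 of 6 (2.61 to 6.50%) and chromosome 19 in 4 of 6 (2.35 to 8%). The pool ranges of the highest and lowest chromosomes overlapped, and no test of the chromosomes was made.

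Within chromosomes, the autosomes were divided into consecutive blocks of 10 Mb, and the share ranged more widely between these. Blocks hold far fewer integrations than a chromosome, and shares from small numbers vary more. The blocks were not tested. Of the 248 blocks that held 20 or more integrations, 19 had more than 15% repressed reporters and together held 153 of them, and 9 had none among 466 integrations. The examples that follow were chosen after their values were seen. On chromosome 5, chr5:40000001-50000000 held 14 members among 44 integrations (31.8%), which came from 6 of 6 pools, and its median level over all integrations was -2.11. On chromosome 14, chr14:80000001-90000000 held 16 of 89 (18.0%) from 6 pools, and chr14:90000001-100000000 held 14 of 55 (25.5%) from 5 pools, with median levels of -2.21 and -2.15. Chromosome 16 had 8 of 31 (25.8%, from 4 pools) in chr16:60000001-70000000, with a median level of -2.52. At the other end, chr17:40000001-50000000 had 0 of 82, with a median level of 1.70, and chr6:130000001-140000000 had 0 of 69, with a median level of 0.56. Over all 19 blocks above 15% the median level ran from -2.52 to -0.75, members included, and over the 9 blocks without a member from -0.25 to 1.70. The second richest block, chr3:40000001-50000000, with 6 of 20 (30.0%), had a median level of -1.14.

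The place of a member could be compared with counts that the rule did not use for that member, those of integrations in the other 5 pools near it. Each of these comparisons was made within a pool, between its members and its other integrations, and tested over the 6 pools with an exact two-sided sign-flip permutation test, whose smallest p over 64 sign patterns is 0.031. In all, 5 tests were made and adjusted by Benjamini-Hochberg, and none passed 0.05 after adjustment. The labels do not say whether the pools came from separate transfections, and pools share neighbours, so these p-values measure the spread between these pools only. Whether a neighbour was itself repressed was set by the same rule, and a close pair of members from different pools counts from both sides.

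Integrations of other pools had a lower mean level near repressed reporters than near other reporters in each of the 6 pools. Within 20 kb, 263 members and 6122 other integrations had at least 1 neighbour of another pool with another barcode. The mean level of the neighbours was -1.04 ± 0.41 around members and 0.54 ± 0.07 around the others (SD, n = 6 pools), a difference of -1.58 ± 0.40 log2 units that was negative in 6 of 6 pools (exact sign-flip permutation test, p = 0.031, adjusted p = 0.052). By pool the neighbours of members stood at -1.07 in mPGK-A, -1.79 in mPGK-B, -0.58 in mPGK-C, -0.80 in mPGK-D, -1.01 in mPGK-E and -1.01 in mPGK-F. Neighbours of the other integrations stood between 0.45 and 0.63, so that the groups did not overlap.

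The surroundings of single members ranged from low to high. Of the 263 members with neighbours, 155 had a neighbour mean below 0 (58.9%), against 36.2% of the other integrations. A neighbour mean below -4 was seen for 33 members (12.5%) and for 175 of the others (2.86%). On the other side, 54 members (20.5%) had neighbours with a mean above 1, against 43.9% of the others, and for 19 members that mean lay above 2.

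Repressed reporters had a larger share of repressed neighbours in each pool. Among neighbours of other pools within 20 kb, 13.8 ± 2.9% were repressed around members and 3.52 ± 0.56% around other integrations (SD, n = 6 pools). The difference of 10.3 ± 3.1 percentage points was positive in 6 of 6 pools, from 6.82 to 13.9 points (exact sign-flip permutation test, p = 0.031, adjusted p = 0.052). Its size differed between alternatives. It was 11.3 points with 5 RNA reads added, 11.2 points without the lowest 10% of DNA counts, 7.64 points with only integrations of at least 10 RNA reads and 9.73 points without culture 1. Without culture 2 it was 4.13 points, with members required to be below -4 in each culture 5.14 points, and with every integration that had 0 RNA reads in a culture left out 2.18 points (exact permutation p = 0.406). Within 5 kb it was 6.79 points (exact permutation p = 0.125) and within 100 kb 5.58 points.

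The gap between the groups was present up to the longest distance measured. At up to 5 kb, neighbours of members stood at -0.89 ± 0.95 and those of other integrations at 0.70 ± 0.08, with 97 members in the comparison. Between 50 and 100 kb the values were -0.65 ± 0.15 and 0.21 ± 0.04, and between 200 and 500 kb they were -0.97 ± 0.08 and -0.19 ± 0.02. Between 1000 and 2000 kb they were still -0.65 ± 0.07 and -0.32 ± 0.03 (SD, n = 6 pools each), and the pools of the groups did not overlap there. Around other integrations the level was thus above 0 up to 100 kb and below 0 from 200 kb, while around members it lay between -1.05 and -0.65 in each distance class.

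Between 5 and 20 kb, repressed reporters made up 15.3 ± 6.8% of the neighbours of members and 3.58 ± 0.78% of those of the others. Between 20 and 50 kb they were 5.49 ± 2.13% and 4.44 ± 0.42%, which differ by less than the spread between pools, and between 200 and 500 kb 11.0025 ± 0.89% and 6.15 ± 0.27% (SD, n = 6 pools). The share around members showed no steady course with distance, and at up to 5 kb the pools ran from 0 to 17.6%. Around the others it was 3.17% at up to 5 kb and 7.06% between 1000 and 2000 kb. These distance classes were not tested one by one.

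**Figure D3:**
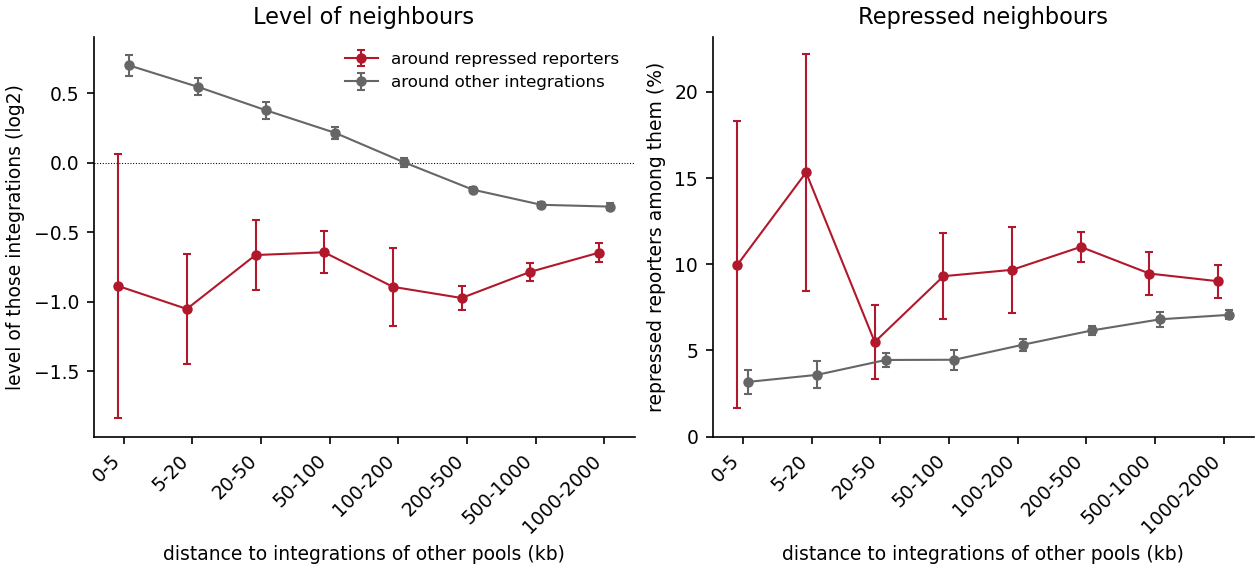
Mean level (left, log2 units) and percent of repressed reporters (right) among integrations of other pools, by distance class in kb, around repressed reporters (red) and around other autosomal integrations (grey); points are means and bars SD over 6 pools. The red points of the left panel lie between -1.05 and -0.65 in all 8 classes, while the grey points go from 0.70 to -0.32.

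Places with a repressed reporter held fewer integrations of other pools in each of the 6 comparisons. Within 100 kb of a member there were 1.25 ± 0.11 integrations of other pools, and 2.12 ± 0.05 within 100 kb of another integration, a difference of -0.864 ± 0.125 that was negative in 6 of 6 pools (exact sign-flip permutation test, p = 0.031, adjusted p = 0.052). No integration of another pool lay within 100 kb of 456 members (40.5%, 37.2 to 43.8% by pool), against 20.5% of the others (19.2 to 21.6%). The nearest integration of another pool was a median of 68.0 kb away from a member and 33.1 kb from the others. By pool these medians ran from 52.1 to 74.8 kb and from 31.3 to 34.1 kb, so that the groups did not overlap.

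Seen from the side of density, the share of repressed reporters was 12.0 ± 1.8% where no integration of another pool lay within 100 kb (456 of 3808), 7.02 ± 1.43% with 1 (304 of 4353), 4.86 ± 0.52% with 2 (170 of 3501), 3.88 ± 0.68% with 3 to 4 (155 of 3997) and 2.30 ± 0.72% with 5 to 9 (41 of 1776; SD, n = 6 pools). With 10 or more there were 0 of 65, which allows a share of up to 4.62% and is too few to set that class below the one before it. Sparse and dense places alike had repressed reporters, up to the class of 5 to 9 neighbours.

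**Figure D4:**
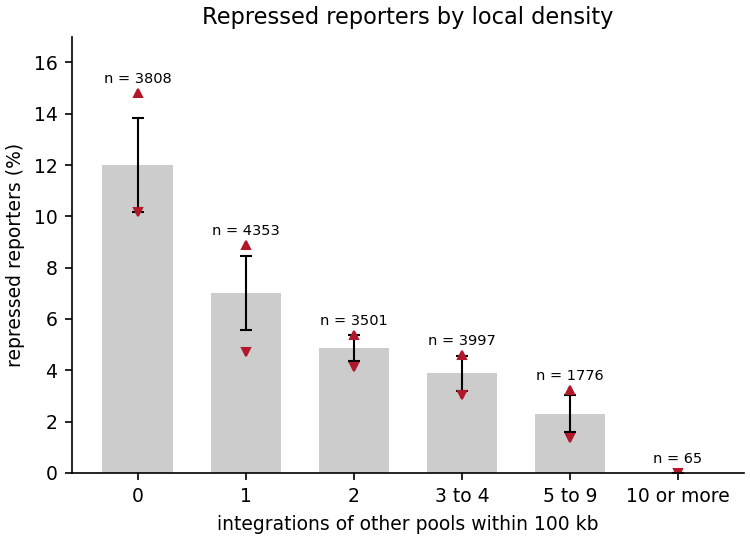
Percent of autosomal integrations that were repressed reporters (y axis) by the number of integrations of other pools within 100 kb (x axis). Bars are means over 6 pools with the number of integrations above, error bars the SD, and triangles the lowest and highest pool. The mean share goes from 12.0% with no neighbour to 2.30% with 5 to 9.

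Neighbours of members were lower within classes of local density too. By the number of other-pool integrations within 100 kb, the level of neighbours within 20 kb, members minus others, was -1.47 ± 0.52 log2 units with 1 such integration (83 members), -0.9997 ± 0.7575 with 2 (70), -1.31 ± 0.67 with 3 to 4 (83) and -1.44 ± 0.98 with 5 to 9 (27; SD, n = 6 pools). The difference had the same sign in 6 of 6 pools in each class. Over all classes it was -1.58. Within the last 2 classes, which are ranges, members and others can still differ in density.

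Members of different kinds were compared for their surroundings. Of the 483 members below -4 in 1 culture only (median 1067 DNA reads), 120 had neighbours within 20 kb, at a mean level of -1.17 ± 0.54. Of the 462 with RNA reads that were below in both cultures (median 2231 DNA reads), 103 had neighbours, at -0.99 ± 0.74. Of the 181 without RNA reads (median 697 DNA reads) 40 had neighbours, at -0.58 ± 0.95 and below 0 in 4 of 6 pools (SD, n = 6 pools). In the 3 kinds, taken whole, 39.5%, 41.1% and 41.4% of members had no other-pool integration within 100 kb. The differences between the kinds were not tested.

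The differences in strand and barcode composition did not pass the test. Of the members 50.7 ± 1.6% were listed on the plus strand and 49.1 ± 0.9% of the others, a difference of 1.56 ± 1.60 percentage points that was positive in 5 of 6 pools (exact sign-flip permutation test, p = 0.0625, adjusted p = 0.078). It was -1.26 points with integrations that had 0 RNA reads in a culture left out. Barcodes of members had a GC content of 41.9 ± 0.7% and those of the others 41.4 ± 0.3%, a difference of 0.55 ± 0.95 points, positive in 5 of 6 pools (exact sign-flip permutation test, p = 0.219, adjusted p = 0.219).

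Repressive stretches, taken as 3 or more repressed reporters each within 100 kb of the next, were rare. There were 4, with 14 of the 1126 members, and 71 steps between consecutive members were of at most 100 kb. The number of stretches followed the gap allowed, from 0 at 50 kb to 12 with 40 members at 250 kb. It went down to 2 when mPGK-A, mPGK-B, mPGK-D or mPGK-E was left out, and to 0 when members had to be below -4 in each culture.

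Only the stretch on chromosome 3 held no other integration. It covers chr3:31388830-31496609 (108 kb) with 3 members. The mPGK-A reporter at chr3:31388830 had 425 and 240 DNA reads, 29 and 0 RNA reads and a level of -4.83. The mPGK-E reporter at chr3:31475488 had 1078 and 1274 DNA reads, 41 and 10 RNA reads and a level of -4.27. Last stood the mPGK-E reporter at chr3:31496609, with 789 and 995 DNA reads, 9 and 4 RNA reads and a level of -5.54. With both cultures summed and no read added, these members lay 8.16-fold, 15.9-fold and 47.4-fold below the median. The mPGK-A reporter had a level of -2.44 in culture 1. Within 250 kb on either side, a further member of mPGK-C lay 251 kb from the first, with 738 and 747 DNA reads and no RNA read (at least 181-fold below the median), and the other integrations stood at -2.15 (mPGK-D) and -2.32 (mPGK-F). All 6 integrations of this region, from 5 pools, thus had levels of -2.15 or lower.

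On chromosome 13 the stretch chr13:44858946-45075648 (217 kb) held 7 integrations, 4 of them members. The members, from mPGK-D at chr13:44858946 and chr13:44923992, mPGK-B at chr13:45009571 and mPGK-C at chr13:45075648, had levels of -4.98, -4.37, -5.02 and -6.09. Their RNA reads in the 2 cultures were 13 and 0, 8 and 23, 2 and 67, and 7 and 0. With both cultures summed and no read added, these members lay 13.4-fold, 19.9-fold, 12.6-fold and 39.0-fold below the median. Between them lay integrations of mPGK-D at -0.66, mPGK-F at -2.07 and mPGK-E at -1.54, so that no integration inside reached its pool median. Of the 5 integrations within 250 kb outside, none was a member, and their median level was 0.65.

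In the chromosome 4 stretch, chr4:104735727-104867785 (132 kb), 3 other reporters lay among 4 repressed ones. Members were mPGK-D at chr4:104735727 with 6 and 35 RNA reads and a level of -5.17, mPGK-B at chr4:104767776 with 5 and 25 reads at -4.02, mPGK-E at chr4:104858896 with 0 and 46 reads at -4.20, and mPGK-E at chr4:104867785 with 9 and 14 reads at -5.001. Summed over both cultures with no read added, these members lay 27.5-fold, 13.5-fold, 3.87-fold and 32.9-fold below the median. Non-members inside stood at 1.46 (mPGK-B), -0.37 (mPGK-D) and 1.34 (mPGK-D). The last of these, 127 kb from the first member, lay between both mPGK-E members, at 123 kb and 132 kb. Its levels of 1.09 and 1.52 in the cultures came from 84 and 99 DNA reads. Of the mPGK-E members beside it, the first had levels of -7.35 and -1.05 and the other of -5.39 and -4.62, so that only the other was low in both cultures.

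The chromosome 17 stretch, chr17:79003905-79087944 (84.0 kb), likewise enclosed active reporters. Its members were mPGK-D at chr17:79003905 with 155 and 128 DNA reads and no RNA read (at least 29.8-fold below the median), mPGK-D at chr17:79073252 with 41 and 20 RNA reads and a level of -4.09, and mPGK-A at chr17:79087944 with 16 and 0 RNA reads and a level of -6.58. On summed counts with no read added, the members at chr17:79073252 and chr17:79087944 lay 16.9-fold and 35.3-fold below the median. Between the first members an mPGK-C reporter at chr17:79034248 gave 2684 and 2930 RNA reads and a level of 3.04, and an mPGK-A reporter beside it stood at 0.18. These lay 30.3 kb and 34.1 kb from the first member, with the next member at 69.3 kb, so that reporters above their pool median had repressed ones on both sides.

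**Figure D5:**
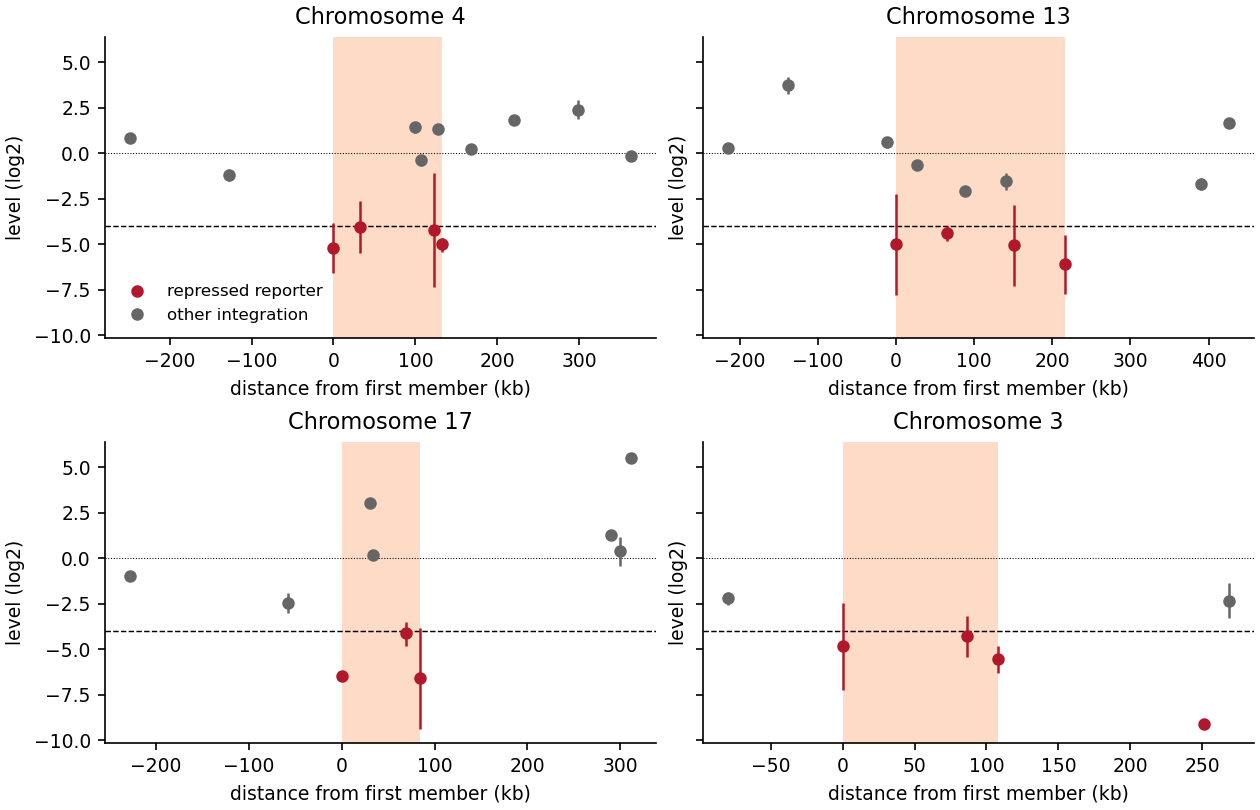
Level in log2 units (y axis, dotted line at the pool median, dashed line at -4) of every integration within 250 kb of the 4 stretches, by distance in kb from the first member (x axis); points are means, vertical lines join the 2 cultures, members without RNA reads are drawn at the level that the added 0.5 reads give, shading spans the stretch. Grey points above 0 lie inside the shaded span on chromosomes 4 and 17, and none on chromosomes 13 and 3.

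Repressed reporters of different pools could lie very close together. There were 2 such pairs within 1 kb, 21 within 20 kb and 59 within 100 kb. The closest, 0.173 kb apart on chromosome 2 on the same strand, were mPGK-B at chr2:50016875, with 399 and 342 DNA reads, 21 and 0 RNA reads and a level of -5.38, and mPGK-F at chr2:50017048, with 2197 and 1853 DNA reads, 48 and 37 RNA reads and a level of -4.18. The second pair, 0.569 kb apart on chromosome 7, was mPGK-D at chr7:74764335 with 15 and 11 RNA reads at -4.54 and mPGK-F at chr7:74764904 with 12 and 0 RNA reads at -5.18. In each of these pairs 1 reporter was low in both cultures and the other in 1. With both cultures summed and no read added, the chromosome 2 reporters lay 13.3-fold and 18.1-fold below the median. Those on chromosome 7 lay 24.5-fold and 15.1-fold below it on the same counts.

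In the third pair, 1.563 kb apart on chromosome 6 and on opposite strands, mPGK-D at chr6:123237736 had 3 and 8 RNA reads and a level of -5.53, and mPGK-A at chr6:123239299 had 0 and 13 RNA reads and a level of -5.97. Next came a pair 2.579 kb apart on chromosome 4. There mPGK-D at chr4:130275526 had 399 and 445 DNA reads and no RNA read (at least 89.2-fold below the median), and mPGK-B at chr4:130278105 had 21 and 10 RNA reads and a level of -4.47. The last pair, 3.733 kb apart on chromosome 7, had 0 and 15 RNA reads in mPGK-B (chr7:35725511, level -5.72) and 25 and 0 in mPGK-A (chr7:35729244, level -5.85). Apart from the chromosome 7 pair last named, each pair had at least 1 member low in both cultures.

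A repressed reporter was found within 20 kb of another pool's repressed reporter in 42 members (3.73%), against 276 of the other integrations (1.69%). Within 100 kb these shares were 10.2% (115) and 7.39% (1210), and within 1000 kb 57.8% and 51.8%. Members had fewer integrations of any level around them, so these shares are per place and not per neighbour. The nearest repressed reporter of another pool was a median of 786 kb from a member (632 to 881 kb by pool) and 950 kb from the others (917 to 1020 kb). Most repressed reporters thus stood without a repressed neighbour of another pool within 100 kb.

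Members were also ranked by the gap between their own level and that of their neighbours, a rank that for members without RNA reads depends on their DNA depth. Of the 48 members with at least 2 other-pool neighbours within 20 kb, the largest gap to the neighbours' mean was at chr9:48974348 of mPGK-A, the deeply counted member without RNA reads. Its neighbours stood at -0.54 (mPGK-C, 9.474 kb away) and 3.03 (mPGK-D, 13.543 kb away). The next, chr11:70677662 of mPGK-A, had 387 and 603 DNA reads and no RNA read, at least 112-fold below the median. Both its neighbours were of mPGK-B, at 4.12 and -0.76. After these, chr18:16616147 of mPGK-E had 4814 and 5032 DNA reads and no RNA read, at least 1132-fold below the median, with neighbours at -4.47 (mPGK-F) and 0.59 (mPGK-D). The first of these neighbours was a repressed reporter itself, and with gaps of up to 250 kb both belong to a stretch of 3 members from 3 pools, chr18:16402206-16616147, in which the other integration stood at -3.46.

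For the remaining pair of members both neighbours stood above 0. At chr10:62605834 of mPGK-C, with 0 and 22 RNA reads and a level of -5.93, both neighbours were active, at 2.396 (mPGK-D, only 0.726 kb away) and 1.93 (mPGK-F). This member had levels of -8.81 and -3.08 in its cultures. The reporter at chr17:87203002 of mPGK-E had 2959 and 2674 DNA reads, 5 and 27 RNA reads and levels of -7.51 and -5.09, and its neighbours stood at 0.34 (mPGK-A) and 1.60 (mPGK-B). These 5 were ranked by the gap itself, so its size is a description.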

How the data were processed

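The authors deposited 1 table with raw read counts, of DNA and of RNA, for each barcode, pool and technical replicate, with chromosome, position and strand, from 72 libraries (24 each of RNA, DNA and mapping, in 2 PCRs per replicate, per the labels' protocols). Bowtie2 2.0 and mm9 are named per the submitters' processing notes. The sources used here do not give how PCRs were combined, barcodes chosen or low counts treated, nor whether positions start at 0 or 1, so a position may be 1 base off. Totals are sums over listed barcodes.

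Levels, neighbours and sign-flip tests were computed with Python 3.11.15, numpy 2.4.6, pandas 2.3.3 and scipy 1.17.1, and counts were fitted with edgeR 4.0.16 (TMM scaling, shifted to the pool median) and DESeq2 1.42.0 in R 4.3.3. The sign-flip tests and the edgeR fit were tested on simulated data. Simulated counts for edgeR had no added zeros and no change as large as the members' levels, so they do not cover the members. Neighbours had another barcode and another pool. The replicate number pairs RNA and DNA of the same culture, per the labels; their deviations correlated at -0.00213 to 0.0575 across barcodes in the pools.

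Members, lists and tests were chosen with earlier results of these data known. Named integrations were the members of the up to 5 largest stretches (4 existed), the 5 closest pairs from different pools, the 5 lowest with at least 10 RNA reads in each culture, 3 on each side of the threshold, the 5 with the largest gap to at least 2 neighbours, and the lowest and highest in DNA, with the highest and lowest chromosomes. Alternatives were other pseudocounts, thresholds, depths, windows, gaps and count models, single cultures, and leaving out pools. The genome sequence around sites was not analysed here.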

Additional observations from a re-analysis of the deposited data

Results flagged for a closer look

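In 29 measures with 1 value for each of the 6 pools, 2 had a pool that stood apart from the other 5, and chance gives about 1 in 20. The level of neighbours within 20 kb of repressed reporters, minus that around other integrations, was -2.33 in mPGK-B, against -1.60 to -1.21 in the other pools. The median level of repressed reporters was -5.65 in mPGK-C, against -5.34 to -5.16 in the others. Without mPGK-B the difference in the level of neighbours was -1.44 over 5 pools.

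Integrations of the sex chromosomes were not among the members. Of 348 integrations on chromosome X, 26 (7.47%) lay below -4, from 6 pools and with 2 without RNA reads. On chromosome Y, 5 of 9 (55.6%) lay below -4, from 4 pools and with 1 without RNA reads, and 9 integrations leave that share wide.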

How the results depend on the processing

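Over all alternatives run, the level of neighbours, members minus others, was negative (-1.80 to -1.14), as was the density difference, and the difference in repressed neighbours was positive (2.18 to 13.9 points). Leaving out a pool leaves 5 pools, whose smallest p is 0.0625. With only integrations of at least 10 RNA reads, 732 members remained, and the differences were -1.42 for neighbours, 7.64 points for repressed neighbours, -0.852 for density and 1.75 points for strand, each with adjusted p = 0.039 (exact sign-flip permutation test). The unadjusted p of that test was 0.031 for each, its smallest value, as with all integrations except for strand. Adjusted p was lower because strand reached that value too. With all integrations the differences were -1.58 for neighbours and 10.3 points for repressed neighbours. This filter uses RNA counts, which the rule uses as well. There were 647 members with 5 reads added, 2018 at a threshold of -3 and 641 at -5. Stretches numbered 0 with 5 reads added, 20 at -3, 0 at -5, 2 without the lowest 10% of DNA counts, 2 to 4 with a pool left out, 0 with gaps of 50 kb and 12 with 250 kb. Among alternatives chosen after seeing the data, each culture below -4 left 643 members and 0 stretches, and leaving out integrations with 0 RNA reads in a culture left 527 members, 0 stretches and a reversed strand difference of -1.26 points. The cause was not tested. With the replicate block, edgeR called 1105 members and 5869 integrations lower, without the shift 1109 and 6835. A fit without a replicate (1 RNA against 1 DNA count) gives no test and was not run, nor were the windows of genome sequence. The 65 places with 10 or more neighbours are few for a share.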

Other observations

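Barcodes were not always unique to a pool. The barcodes of 70 repressed reporters were also listed in another pool, with 74 counterparts, of which 14 were repressed reporters themselves (18.9%), while 60 of 942 counterparts of other integrations were (6.37%). The median level of the counterparts was -0.84 for members and -0.10 for the others. The 14 form 7 pairs. Barcodes are shown for the pair on the same chromosome and for the pair without RNA reads in either pool.
mPGK-A chr2:100191002 and mPGK-D chr2:100708949: tgagggtcccatgctc
mPGK-A chr11:118449337 and mPGK-D chr17:16644707: caccaagcattaagat
The chromosome 2 pair lay 518 kb apart, with 328 and 467 DNA reads and no RNA read in mPGK-A, and 488 and 478 DNA reads with 12 and 0 RNA reads in mPGK-D. The other pair had 431 and 462 DNA reads in mPGK-A and 757 and 906 in mPGK-D. Without barcodes listed in several pools, the difference in repressed neighbours was 10.9 points.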
